A study of Mus musculus with 18 samples.

Results

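A set of 10 genes that mark opposite ends of the liver lobule were followed across 18 microarrays of mouse liver. Of these, 7 are expressed mainly around the central vein (Glul, Oat, Axin2, Lgr5, Tbx3, Slc1a2 and Lect2) and 3 mainly around the portal tract (Gls2, Sds and Hal). Members were all probe sets whose gene symbol in the platform annotation is one of these names. A probe set is a group of short DNA probes on the array that together report 1 transcript region. This gave 19 probe sets of 8 genes, 18 pericentral and 1 periportal (Hal), out of 45101 probe sets and 18193 named genes in all. A further 1 probe set, assigned to a member together with another gene, was set aside. No probe set carried the symbol Gls2 or Sds in the annotation used, so these genes were not analysed here, and the periportal side rests on 1 probe set.

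Hepatocytes divide their work along the path of blood from the portal tract to the central vein. Endothelial cells at the central vein secrete Wnt ligands and R-spondin, which stabilise beta-catenin in the nearby hepatocytes. Beta-catenin, with TCF/LEF factors on DNA, then maintains glutamine synthesis and other pericentral functions, while urea synthesis and amino acid breakdown are mostly periportal. Axin2 is a negative-feedback target widely used as a readout of this pathway, and glutamine synthetase is carried by the hepatocytes next to the central vein, where Wnt activity is highest.

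The arrays fell into 6 groups of 3, by genotype and treatment. The genotypes were Hmgn1+/+ (wild type) and Hmgn1-/- (labelled knockout of a nucleosome-binding protein), all males. They were bred as separate homozygous lines after an initial cross between heterozygotes. Differences of genotype and other differences between the lines cannot be told apart. In each genotype 1 group was not injected and was taken at 4 weeks. The other groups received 1 injection at 4 weeks of age, either of N-nitrosodiethylamine (DEN, a carcinogen activated by liver enzymes) at 10 µg per g body weight or of saline, and are titled 12 weeks. The labels do not say from when the 12 weeks were counted. DEN against not injected therefore joins treatment with age, as does saline against not injected, and those cannot be told apart. Nothing in the labels ties the 3 arrays of a group to separate animals. The p-values below therefore rest on the spread among the arrays, and this spread may be technical. RNA came from whole frozen liver, in which fewer cells of a type and less RNA per cell cannot be told apart.

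Axin2, Slc1a2, Lect2 and Hal were the members with a called difference in at least 1 comparison both before and after quantile normalization (explained below). The RefSeq sequence (GRCm38.p6) of the 250 bases before their listed transcription start is printed here. For Tbx3 and Lgr5 no such window was available. Capitals mark any match to a TCF/LEF core motif, searched on both strands in 4 forms: the form CTTTGAA, the form CTTTGAT, the form CTTTGTA and the form CTTTGTT. The listed starts of Axin2, Slc1a2 and Lect2 lie inside the span of the gene, downstream of its outermost start. Whether the listed starts are the ones used in liver was not examined.
Axin2, chr11:108920099-108920348, + strand: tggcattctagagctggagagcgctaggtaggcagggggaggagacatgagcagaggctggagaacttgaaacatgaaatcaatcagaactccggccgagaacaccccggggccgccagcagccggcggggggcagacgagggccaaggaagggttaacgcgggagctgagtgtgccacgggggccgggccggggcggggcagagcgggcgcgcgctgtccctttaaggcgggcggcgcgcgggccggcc
Slc1a2, chr2:102706188-102706437, + strand: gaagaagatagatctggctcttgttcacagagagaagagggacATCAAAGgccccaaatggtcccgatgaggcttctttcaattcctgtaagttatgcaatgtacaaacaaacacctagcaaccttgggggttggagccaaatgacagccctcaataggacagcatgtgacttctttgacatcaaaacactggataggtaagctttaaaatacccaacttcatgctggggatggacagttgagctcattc
Lect2, chr13:56548539-56548788, - strand: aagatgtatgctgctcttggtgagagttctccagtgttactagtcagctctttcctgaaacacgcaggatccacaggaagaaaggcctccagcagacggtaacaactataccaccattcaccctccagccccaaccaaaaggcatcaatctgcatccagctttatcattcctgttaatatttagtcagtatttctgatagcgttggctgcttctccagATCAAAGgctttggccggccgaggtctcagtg
Hal, chr10:93488518-93488767, + strand: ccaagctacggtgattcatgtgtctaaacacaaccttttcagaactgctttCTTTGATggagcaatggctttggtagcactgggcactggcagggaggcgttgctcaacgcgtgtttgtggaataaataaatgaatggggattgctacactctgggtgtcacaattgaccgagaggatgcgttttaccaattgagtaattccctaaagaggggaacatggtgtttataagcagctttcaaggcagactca
Of 6 member windows searched (these 4, Glul and Oat), 3 held a match, in each case to CTTTGAT. In Slc1a2 the match lay on the antisense strand and began 207 bases before the start. In Lect2 it was also antisense, 32 bases before the start, and in Hal it was on the sense strand, 199 bases before the start. No match was found in the windows of Axin2, Glul or Oat. Of all 32851 RefSeq windows of 250 bases, 14.8% held at least 1 of the 4 forms and 3.21% held CTTTGAT. A match of these letters is a description of the window and not a binding site.

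The deposited values are Affymetrix MAS5 signals on a linear scale, with the same trimmed mean (150) on each array. Differences below are in log2(signal + 16), so a value of 1 is a doubling for a bright gene and understates the change of a dim one. They were tested with limma over the 27022 probe sets that passed a filter on low mean signal. A difference is called where the Benjamini-Hochberg adjusted p over these 27022 is under 0.05. Where groups are said not to overlap, this only describes their 3 arrays each, and its share over all probe sets is not given here. Of the 19 member probe sets, 14 passed the filter. The other 5 (1 each of Axin2, Lgr5 and Slc1a2, and 2 of Tbx3) had signals between 0.551 and 27.4 and were not tested. The 12-week saline group of both genotypes (6 arrays) had a compressed signal range. The highest signals of these arrays were 16720 to 21752, against 46967 to 60173 on the other 12, and the 8 spiked hybridization control probe sets averaged 7.93 to 8.35 (log2) against 10.49 to 11.25. Saline treatment and this array difference cannot be told apart, and against 4 weeks age is joined to both. Differences against saline are therefore given with the value after quantile normalization, which forces the same distribution on every array. The targeted gene did not separate the genotypes. The brightest Hmgn1 probe set ranged from 5039 to 7948 in the 9 wild-type arrays and from 4838 to 6894 in the 9 arrays labelled knockout. The 3 tested Hmgn1 probe sets differed by -0.10, -0.04 and -0.11 at 4 weeks (limma adjusted p from 0.577 to 0.898), and 1 of these signs turned after quantile normalization. Whether these probes lie inside the deleted sequence is not stated in the sources used here, so every genotype direction below rests on the labels.

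**Figure D1:**
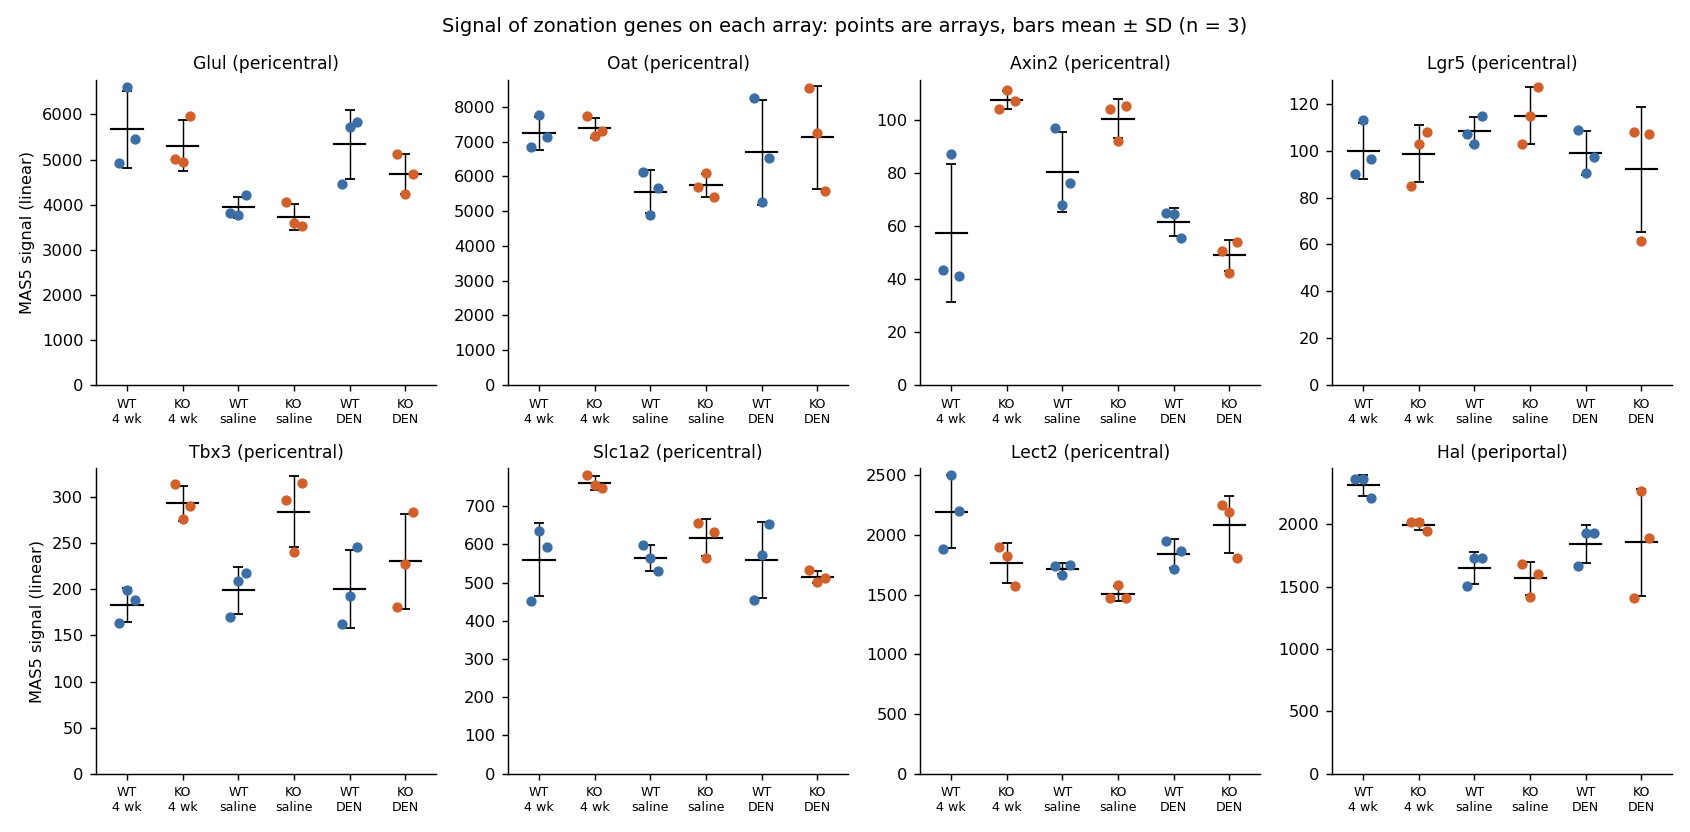
MAS5 signal (linear, axes from 0) of the brightest tested probe set of each of the 8 genes, by group; points are arrays, blue wild type (WT) and orange labelled knockout (KO), with bars for mean and SD (n = 3). Axin2 and Tbx3 of the labelled knockout at 4 weeks sit above every wild-type array of that age, and Axin2 of the DEN-injected labelled knockout lies between 42.2 and 53.9.

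The 8 genes covered a wide range of signal. Oat, which converts ornithine to glutamate semialdehyde, and Glul, which makes glutamine from glutamate and ammonia, had mean log2 signals of 12.68 and 12.20, at percentiles 99.2 and 98.7 of all probe sets. Hal, which starts histidine breakdown, and Lect2, a secreted hepatocyte protein, were at 10.86 and 10.85. Slc1a2, a glutamate transporter, was at 9.24 and the transcriptional repressor Tbx3 at 7.92. Lgr5, an R-spondin receptor, and Axin2, a scaffold of the complex that degrades beta-catenin, were the dimmest, at 6.87 and 6.47. These are probe signals, which differ with the probe as well as with the transcript, so no level of 1 gene was compared with that of another.

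Without injection at 4 weeks, the Wnt feedback gene Axin2 and the Wnt target Tbx3 were higher in the livers labelled knockout, while the classic pericentral enzymes Glul and Oat showed no called difference. Of the 14 member probe sets tested, 2 rose and 0 fell, against 2.26% of all tested probe sets called in this comparison. The members were chosen with earlier results of these data known, so this share and those below describe the set and do not test it. The median difference of the 14 was 0.06, beside 0.02 over all tested probe sets. Axin2 read 43.2, 87.1 and 41 in wild type and 104, 111 and 107 in the labelled knockout. The groups did not overlap, and wild-type replicate 2 stood above the other two wild-type arrays. Axin2 rose by 0.81 (SE 0.19, 95% confidence interval 0.42 to 1.2, limma adjusted p = 0.0242). Leaving out 1 array at a time gave differences from 0.66 to 1.08, and the call held in 1 of 6 such fits, that without wild-type replicate 2 (adjusted p = 0.00173); the largest adjusted p was 0.127, without wild-type replicate 3. Without the 6 saline arrays in the fit the difference was the same and the adjusted p was 0.0799.

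Tbx3 had 3 tested probe sets, all with a positive difference at 4 weeks. The first read 163, 199 and 188 in wild type and 314, 276 and 290 in the labelled knockout. These signals did not overlap, and the difference of 0.64 (SE 0.16, 95% confidence interval 0.31 to 0.96) was called, with a limma adjusted p of 0.0347. The second probe set read 143, 206 and 188 against 276, 249 and 290, again without overlap, with a difference of 0.57 that was not called (limma adjusted p = 0.193). The third, at 12.2 to 31.1 against 29.1 to 44.4, gave 0.57 and an adjusted p of 0.527. The call on the first rests on all 18 arrays: it was lost in 5 of 6 fits without 1 array of these groups (differences 0.56 to 0.69, largest adjusted p 0.133 without labelled-knockout replicate 1), without the saline arrays (0.0812) and after quantile normalization (0.60, adjusted p = 0.0513).

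Slc1a2 was split between its probe sets. Its brightest read 452, 634 and 592 in wild type and 782, 755 and 747 in the labelled knockout at 4 weeks. The signals did not overlap, and the difference of 0.45 (SE 0.12) had a limma adjusted p of 0.0562, above the threshold. The next brightest differed by -0.07 (95% confidence interval -0.41 to 0.27), the third by 0.49 (adjusted p = 0.368) and the fourth by 0.10 (adjusted p = 0.932). The third did not overlap either, at 22 to 26.4 in wild type and 28.8 to 48.5 in the labelled knockout. Which transcripts of Slc1a2 each probe set reports was not examined.

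**Figure D2:**
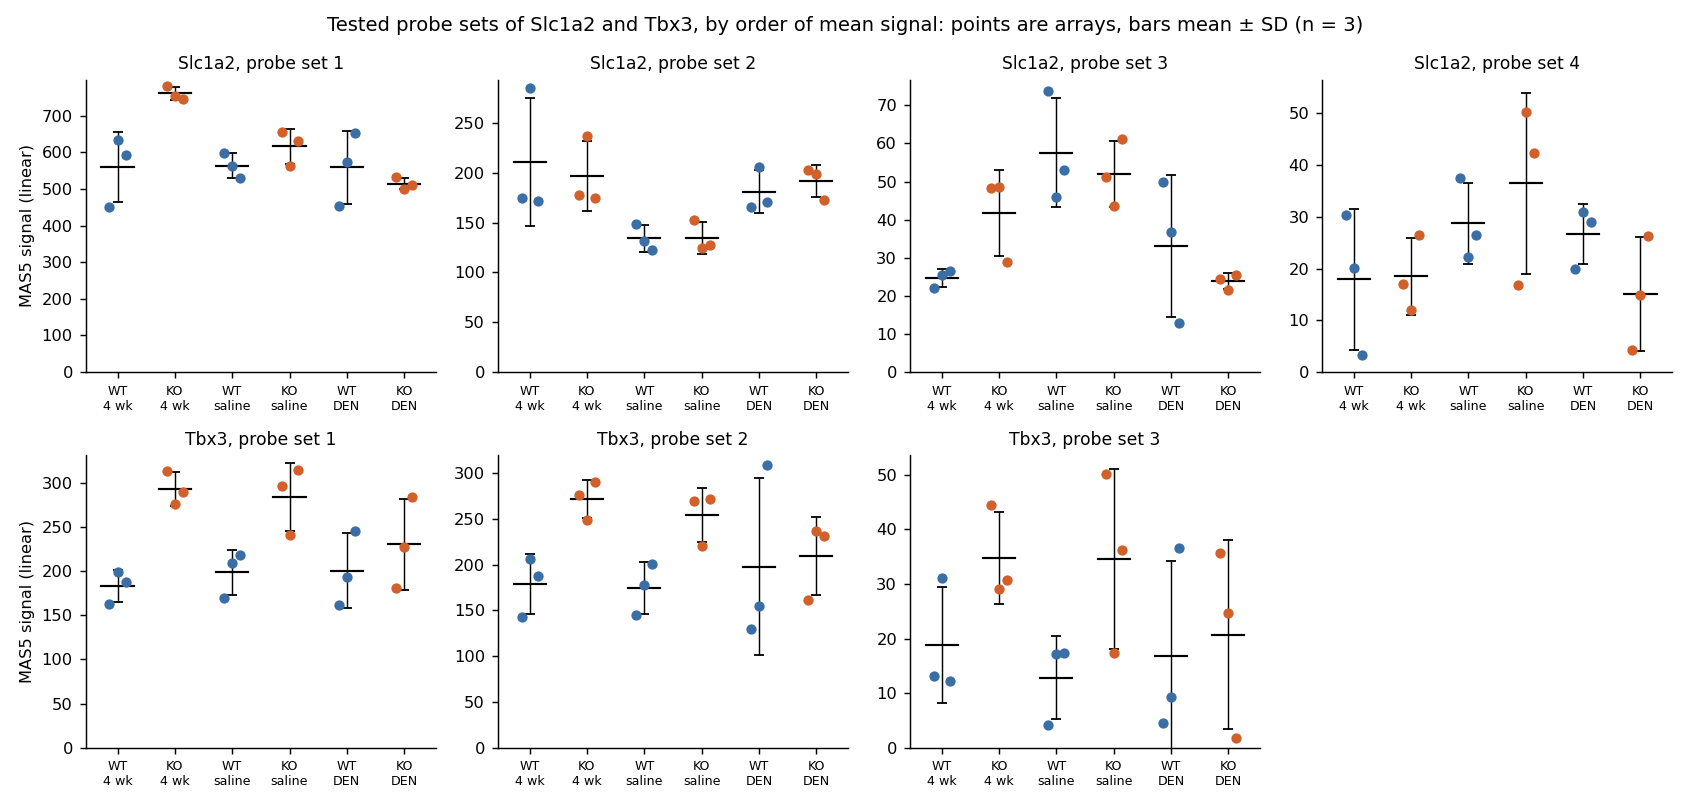
MAS5 signal (linear, axes from 0) of each tested probe set of Slc1a2 (4) and Tbx3 (3), numbered by mean signal; points are arrays and bars mean and SD (n = 3). In the labelled knockout at 4 weeks, probe set 1 of Slc1a2 lies between 747 and 782 while probe set 2 overlaps wild type, and the first 2 of Tbx3 lie above wild type.

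The remaining members gave small or uncalled differences at 4 weeks. Glul differed by -0.09 (95% confidence interval -0.33 to 0.15) and -0.12 (-0.36 to 0.12) on its 2 probe sets. Oat differed by 0.03 (-0.25 to 0.32) and Lgr5 by -0.02 (-0.36 to 0.33). Lect2 read 1885, 2500 and 2199 in wild type and 1895, 1819 and 1575 in the labelled knockout, an uncalled difference of -0.31 (SE 0.10, limma adjusted p = 0.133). The periportal gene Hal read 2365, 2363 and 2216 in wild type and 2017, 2016 and 1951 in the labelled knockout. Its groups did not overlap, but the difference of -0.21 (SE 0.12) was not called (limma adjusted p = 0.425).

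**Figure D3:**
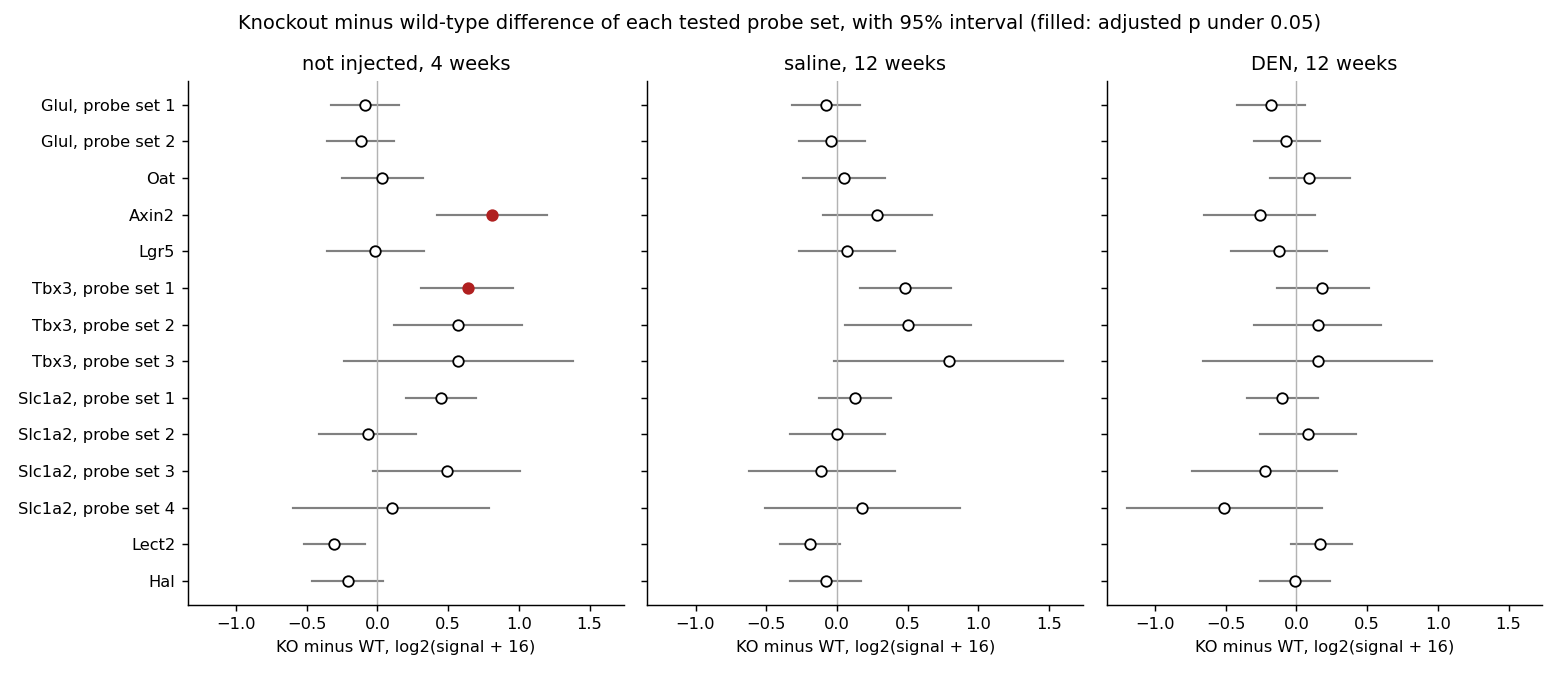
Difference between labelled knockout and wild type, in log2(signal + 16), for the 14 tested member probe sets at 4 weeks, with saline and with DEN; points are estimates and bars 95% confidence intervals (n = 3 per group). Axin2 and the first probe set of Tbx3 at 4 weeks are the called differences, at 0.81 and 0.64.

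Of the other zonation and Wnt pathway genes, 2 pericentral enzymes fell and 1 glutamine transporter rose at 4 weeks in the labelled knockout, where 3.08% of 12896 genes were called (1 probe set per gene). Of 32 tested Wnt ligands, receptors, destruction-complex members, cofactors and feedback targets, 0 rose and 0 fell by limma, with 9 at an unadjusted p under 0.05, a cut passed by 17.5% of all genes. Their median difference was 0.10, beside 0.02 for all genes. Nearest the threshold were the co-receptor Lrp6 at 0.37 (limma adjusted p = 0.0603) and, in the other direction, the receptor-family gene Tnfrsf19 at -0.78 (0.0855). The secreted Wnt inhibitor Notum differed by 0.45 (0.11) and the receptor Fzd7 by 0.63 (0.114). Beta-catenin itself (Ctnnb1) differed by 0.12 (0.565), the liver ligands Wnt2 and Rspo3 by -0.23 (0.624) and -0.39 (0.252), and the targets Sp5 and Nkd1 by 0.65 (0.352) and -0.62 (0.227). Of 18 other pericentral genes 0 rose and 2 fell, with a median of -0.07. They were Cyp7a1, which catalyses the first step from cholesterol to bile acids, at -2.51, and Csad, an enzyme of taurine synthesis, at -0.58. Of 28 other periportal genes 0 rose and 0 fell by limma (median 0.03), with 5 at an unadjusted p under 0.05. Of 20 genes of nitrogen and glutamine handling 1 rose, the glutamine transporter Slc38a2, by 0.46 (limma adjusted p = 0.0183), a call lost without the saline arrays.

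Summed signals of macrophage, stellate and endothelial markers were lower in the labelled knockout at 4 weeks, but few single genes were called. Such sums follow the brightest genes of each list, and 3.08% of all genes were called in this comparison. The summed signal of 6 Kupffer cell and macrophage genes was 3773 to 4117 in wild type and 2547 to 2785 in the labelled knockout. Of these 6, 1 was called lower, and their median difference was -0.48. The sum of 6 stellate cell and matrix genes was 4682 to 4866 against 3484 to 3575, also with 1 called lower (median difference -0.2). The sum of 9 endothelial genes was 2667 to 2758 against 2475 to 2558. None of these 9 was called, their median difference was -0.08, and their directions were mixed. Hepatocyte markers overlapped, at 127541 to 139630 against 132984 to 142755. Of 2 tested exocrine pancreas genes 1 was called higher, Cela1 by 0.76, while Prss2 differed by -0.09. The pancreas genes Ctrb1 and Cpa1, the cholangiocyte genes Krt7 and Krt19 and the lymphocyte genes Cd3e and Cd79a were below the filter. The tested cholangiocyte genes Sox9 and Epcam differed by 0.61 and -0.08, and the tested lymphocyte gene Ptprc by -0.45, none called. The cholangiocyte sum was 73.5 to 112 in wild type and 114 to 131 in the labelled knockout, and the lymphocyte sum 245 to 262 against 179 to 199. The Gapdh 3' to 5' signal ratio, a measure of RNA length, was 1.13, 2.19 and 1.29 in wild type and 1.70, 1.35 and 1.45 in the labelled knockout. Without the array of highest ratio in each genotype, Axin2 differed by 1.10 (limma adjusted p = 0.00868) and Tbx3 by 0.65 (0.134). The wild-type array left out was replicate 2, the same array that read highest for Axin2 in that group. The ratio and the Axin2 signal of that array therefore cannot be told apart in this fit. The part of the cell markers in the Axin2 and Tbx3 differences was not tested.

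At 12 weeks none of the 14 member probe sets was called between the genotypes, with saline or with DEN. The tested background was nearly empty as well, at 0.0111% with saline and 0.0074% with DEN. At an unadjusted limma p under 0.05 the counts were 2 of 14 with saline and 0 of 14 with DEN, against 5.28% and 8.97% of all tested. With saline, Tbx3 read 170, 209 and 218 in wild type and 297, 241 and 315 in the labelled knockout on its first probe set. These signals did not overlap, as at 4 weeks, and the uncalled difference was 0.48 (SE 0.16, limma adjusted p = 0.813). Axin2 overlapped with saline, at 96.8, 67.7 and 76 against 104, 91.9 and 105, with a difference of 0.28 (limma adjusted p = 0.991).

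With DEN, Axin2 read 64.8, 64.3 and 55.4 in wild type and 50.3, 42.2 and 53.9 in the labelled knockout. The labelled knockout was the lower group here, without overlap, by an uncalled -0.26 (SE 0.19, 95% confidence interval -0.65 to 0.13, limma adjusted p = 0.723). Tbx3 overlapped, at 162, 193 and 246 against 181, 227 and 284 (0.18, 95% confidence interval -0.14 to 0.51). The brightest Slc1a2 probe set differed by -0.10 (-0.35 to 0.15), Lect2 by 0.17 (-0.04 to 0.39) and Hal by -0.01 (-0.26 to 0.24). Glul differed by -0.18 and -0.07, Oat by 0.09 and Lgr5 by -0.12, none of them called.

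The change of the genotype difference between conditions was tested directly. Between DEN and 4 weeks 0 of 14 member probe sets was called by limma (0.762% of all tested), with 3 at an unadjusted p under 0.05 (14% of all tested). Axin2 came nearest to the threshold, with a genotype difference that was lower by 1.07 with DEN than at 4 weeks (interaction -1.07, SE 0.26, 95% confidence interval -1.62 to -0.52, limma adjusted p = 0.0594). Among the 12 fits without 1 array of these groups its adjusted p ranged from 0.00505, without wild-type 4-week replicate 2, to 0.153, without wild-type 4-week replicate 3. The interaction of the brightest Slc1a2 probe set was -0.55 (limma adjusted p = 0.144) and that of Lect2 0.48 (0.131). Between saline and 4 weeks 0 of 14 was called (0.0037% of all tested; 0 of 14 at an unadjusted p under 0.05, against 4.02%), and between DEN and saline 0 of 14 (0% of all tested; 1 of 14 unadjusted, against 8.03%).

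Between uninjected livers and those injected with DEN, Axin2 and the brightest probe set of Slc1a2 fell in the labelled knockout, and no member was called in wild type. The difference between the genotypes in this change is the interaction given above. Of the 14 member probe sets 2 fell and 0 rose in the labelled knockout, against 8.24% of all tested probe sets called. In wild type 0 of 14 was called, against 4.40%, with 2 at an unadjusted limma p under 0.05 (19.2% of all tested). Axin2 of the labelled knockout fell by 0.93 on the log2 scale, from 104, 111 and 107 at 4 weeks to 50.3, 42.2 and 53.9 with DEN (SE 0.19, 95% confidence interval -1.32 to -0.54, limma adjusted p = 0.00498). In wild type the difference was 0.14 (SE 0.19, limma adjusted p = 0.732). The brightest Slc1a2 probe set fell by 0.55 in the labelled knockout, from 782, 755 and 747 to 532, 501 and 512 (SE 0.12, limma adjusted p = 0.00895), and read 452, 634 and 592 against 454, 573 and 652 in wild type. Both calls held in 6 of 6 fits without 1 array of these groups, with adjusted p up to 0.027 for Axin2 and 0.0444 for Slc1a2. The 4-week labelled-knockout arrays enter both these falls and the genotype differences at 4 weeks, so these are not separate observations.

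The order of the Axin2 group means shows where these differences lie. The labelled knockout was highest at 4 weeks (mean 107 ± 3.75, SD, n = 3) and next with saline (100 ± 7.42), followed by wild type with saline (80.2 ± 15), with DEN (61.5 ± 5.28) and at 4 weeks (57.1 ± 26). The labelled knockout with DEN was lowest (48.8 ± 6). Ranges of neighbours in this order overlapped except between wild type with saline and wild type with DEN. After quantile normalization the order was the same, but the labelled knockout at 4 weeks (6.89 to 7.03, log2) no longer overlapped with that with saline (6.69 to 6.85).

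No other member probe set was called between DEN and 4 weeks. The 3 probe sets of Tbx3 differed by -0.35, -0.37 and -0.59 in the labelled knockout (limma adjusted p = 0.182, 0.323 and 0.386) and by 0.10, 0.06 and -0.17 in wild type. The 3 dimmer probe sets of Slc1a2 differed by -0.03, -0.52 and -0.19 in the labelled knockout, and by -0.17, 0.19 and 0.41 in wild type. Hal differed by -0.33 in wild type, from 2365, 2363 and 2216 to 1665, 1934 and 1928. These groups did not overlap, but the difference was not called (limma adjusted p = 0.124), and it was -0.13 in the labelled knockout. Lect2 had opposite uncalled differences, -0.24 in wild type (adjusted p = 0.189) and 0.24 in the labelled knockout (0.162). Glul, Oat and Lgr5 differed by -0.18 to 0.12 in either genotype.

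Among the other lists, 5 of 18 pericentral genes fell in wild type between 4 weeks and DEN and 0 rose (median -0.17, all genes 0.04; 4.71% of genes called). They included the xenobiotic receptor Ahr at -0.72, the cytochrome Cyp1a2 at -0.52, Csad at -0.59 and Cyp7a1 at -1.31. Where 8.79% of genes were called, in the labelled knockout, 1 of the 18 rose, Cyp7a1 by 1.83, and 1 fell, the proteasome subunit Psmd4 by 0.35. Without the saline arrays 1 rose and 0 fell. Of the 32 Wnt pathway genes 2 rose in wild type, the receptors Fzd1 by 0.51 and Fzd4 by 0.47, and Lgr4 fell by 0.46, but without the saline arrays 0 of these passed. In the labelled knockout 2 of 32 fell, the beta-catenin cofactor Pygo2 by 0.67 (limma adjusted p = 0.00419) and Lrp6 by 0.47 (0.00859), and 2 fell without the saline arrays too. Of 28 periportal genes 1 rose and 3 fell in the labelled knockout: Igf1 rose by 0.36, and the amino acid enzymes Uroc1 and Tat fell by 0.49 and 1.17 and the adhesion gene Cdh1 by 0.66. In wild type 1 rose and 2 fell, and without the saline arrays 1 rose and 0 fell. Slc38a2 fell by 0.58 in the labelled knockout (limma adjusted p = 0.00205).

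**Figure D4:**
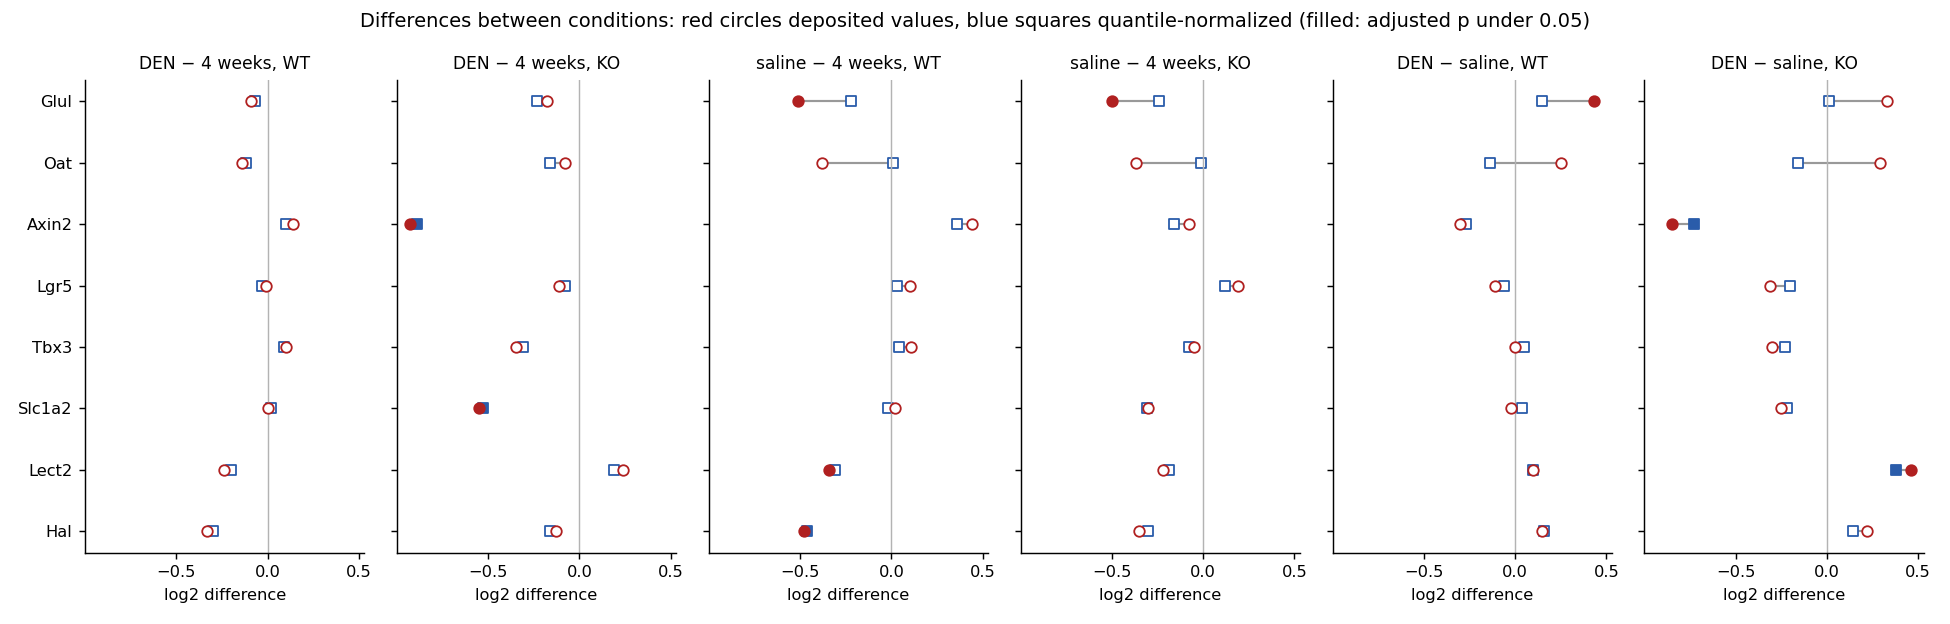
Differences between conditions within each genotype, in log2(signal + 16), for the brightest tested probe set of each of the 8 genes (n = 3 per group); red circles are deposited values, blue squares quantile-normalized values, and filled symbols have an adjusted p under 0.05. Axin2 at -0.93 and the brightest Slc1a2 probe set at -0.55 are the filled circles between DEN and 4 weeks, both in the labelled knockout, and Glul moves towards 0 after quantile normalization in each comparison with saline.

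Macrophage markers moved in the same comparison. In the labelled knockout 5 of 6 Kupffer cell and macrophage genes rose between 4 weeks and DEN (median 0.65), where 8.79% of genes were called. Their summed signal was 2547 to 2785 at 4 weeks and 3208 to 5015 with DEN. In wild type 0 of the 6 was called, against 4.71% of genes, and the sum was 3773 to 4117 at 4 weeks and 3354 to 4447 with DEN. The Gapdh 3' to 5' ratio was 0.907 to 0.937 in the DEN-injected labelled knockout and 1.35 to 1.70 at 4 weeks. Without the 4-week array of highest ratio in each genotype Axin2 fell by 0.95 (limma adjusted p = 0.00376) and Slc1a2 by 0.53 (0.0273). The part of the macrophage markers was not tested.

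Against saline, several called member differences were lost after quantile normalization. From 4 weeks to saline in wild type, 5 of 14 member probe sets were called, 1 up and 4 down, against 8.26% of all tested. After quantile normalization 2 of 14 were called, against 5.27%. Hal was 1 of those that remained. It read 2365, 2363 and 2216 at 4 weeks and 1505, 1728 and 1728 with saline, a fall of 0.48 (limma adjusted p = 0.0129) that was -0.46 after quantile normalization (0.0238) but -0.36 after cyclic loess normalization (0.079). The other was the second Slc1a2 probe set, which fell by 0.56 (limma adjusted p = 0.0334; quantile -0.64, 0.0252). Without wild-type 4-week replicate 2 its difference was -0.34 (adjusted p = 0.2). The call on Hal was lost without wild-type saline replicate 1 (-0.42, adjusted p = 0.0851). The third Slc1a2 probe set rose by 0.84 (0.0376; quantile 0.78, 0.0701), opposite in direction to the second, and was called in 0 of 6 fits without 1 array (0.69 to 0.96, adjusted p from 0.0534 to 0.202).

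The brightest Glul probe set fell by 0.51 in wild type (limma adjusted p = 0.00596) and by 0.50 in the labelled knockout (0.00637) between 4 weeks and saline. After quantile normalization the differences were -0.22 (0.264) and -0.24 (0.195). The second Glul probe set differed by -0.16 and -0.08, neither called. Oat differed by -0.38 and -0.37, uncalled, and by 0.01 and -0.01 after quantile normalization. In the labelled knockout Glul was the 1 called member of 14, against 9.94% of all tested probe sets; after quantile normalization 1 was called (the second Slc1a2 probe set, -0.55, adjusted p = 0.0462), against 7.20%. Lect2 fell by 0.34 in wild type (0.0412; quantile -0.31, 0.0771), with -0.24 without wild-type 4-week replicate 2 (0.196).

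Between DEN and saline, 1 of 14 member probe sets was called in wild type, against 6.54% of all tested. It was Glul, which rose by 0.43 (limma adjusted p = 0.026) and had a quantile-normalized difference of 0.15 (0.489). Its call held in 2 of 6 fits without 1 array (largest adjusted p 0.122, without wild-type DEN replicate 3). Of the same 14, 3 were called in the labelled knockout, against 15.1%. Axin2 fell by 0.85, from 104, 91.9 and 105 with saline to 50.3, 42.2 and 53.9 with DEN (limma adjusted p = 0.00349; quantile -0.73, 0.0112). Both groups are titled 12 weeks, and their signals did not overlap. The Gapdh 3' to 5' ratio was 1.21 to 1.41 with saline and 0.907 to 0.937 with DEN. Of the 6 macrophage genes 2 rose on the deposited values, where 15.2% of genes were called. Their summed deposited signal was 2905 to 3399 with saline and 3208 to 5015 with DEN, without quantile normalization. The part of either in the Axin2 and Lect2 changes was not tested. Lect2 rose by 0.46, from 1470, 1579 and 1468 to 2251, 2194 and 1808 (0.0039; quantile 0.38, 0.0167; cyclic loess 0.29, 0.077). These signals did not overlap, and the calls on Axin2 and Lect2 held in 6 of 6 fits without 1 array. The third Slc1a2 probe set fell by 0.77 (0.041; quantile -0.65, 0.098; called in 0 of 6 such fits), while the second had an uncalled difference of 0.47 (0.0575) that was called after quantile normalization (0.56, 0.0311). In wild type Axin2 read 96.8, 67.7 and 76 with saline and 64.8, 64.3 and 55.4 with DEN, an uncalled difference of -0.30 (0.407).

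The other zonation lists also had fewer calls after quantile normalization. Between 4 weeks and saline in wild type, 11 of 28 periportal genes fell and 1 rose, and after quantile normalization 2 fell and 1 rose (9.79% and 6.17% of genes called). Of 18 other pericentral genes 7 fell and 0 rose, and after quantile normalization 3 fell. Albumin (Alb) differed by -1.33 on the deposited scale and -0.13 after quantile normalization, the urea cycle enzyme Cps1 by -0.87 and 0.01, and the pericentral cytochrome Cyp2e1 by -1.12 and -0.14. Uroc1, which acts after Hal in histidine breakdown, fell by 0.55 and kept a call after quantile normalization (-0.45, limma adjusted p = 0.0107).

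For each member the gene with the most similar profile over the 18 arrays was found among 12895 other genes, from quantile-normalized values. These are descriptions of arrays that share groups and scanning, and the best of many. Axin2 was most like Ubn2 (r = 0.921 over 18 arrays), Slc1a2 most like Ythdf1 (0.917), and Tbx3 most like Rnf145 (0.86) with Prox1 next (0.856). Oat was most like Lpin1 (0.937), Lect2 like Lyplal1 (0.902), Hal like Zfp707 (0.884), Lgr5 like Abcc1 (0.862) and Glul like Dst (0.839). Spearman's rho for Lgr5 with Abcc1 was 0.54, and Lgr5 read 61.3 on replicate 2 of the labelled knockout with DEN against 85 to 127 on the other arrays. On the deposited values r was 0.626 for Glul with Dst and 0.672 for Oat with Lpin1. Within groups, after group means were removed, the values for Oat with Lpin1 and Axin2 with Ubn2 were 0.942 and 0.707. None of the 8 members had another member as its nearest gene. With 12895 genes searched for each, this cannot show whether the members vary together.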

How the data were processed

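Total RNA from frozen mouse liver was measured on 18 Affymetrix arrays with 1-colour labelling, per the labels' protocols. The authors deposited MAS5 signal intensity values on a linear scale (unit intensity; MAS5 per the submitters' processing notes), with a trimmed mean of 150 on every array after 2 percent was trimmed at each end. Depth has no counterpart here; the 3 arrays per group limit the precision.

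From 45101 probe sets, 64 controls were set aside. Values were taken as log2(signal + 16), and 27022 probe sets at or above the 40th percentile of mean log2 entered 1 limma model (version 3.58.1, R version 4.3.3). It had 6 group coefficients, 12 residual degrees of freedom and a variance moderated along mean intensity. Tests were two-sided, with Benjamini-Hochberg adjustment over all tested probe sets and a threshold of 0.05. The procedure was tested on simulated data. The platform annotation gave 34945 probe sets 1 gene, 932 several and 9160 none. Other genes were represented by their tested probe set of highest mean.

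The members and the gene lists were chosen with earlier results of these data known. Named were all members, the gene most like each member, Hmgn1, and from each list up to 4 called genes per comparison with the smallest p; the uncalled Wnt genes named, the next most like gene of Tbx3, Csad in wild type with DEN and Uroc1 with saline were chosen after their values were seen. Alternatives were quantile, median-centred and cyclic loess normalization, 1 or 64 added in place of 16, no filter or the 60th percentile, no trend, the replicate number as a block, and fits without single arrays, without the saline arrays, or without the 4-week array of highest Gapdh ratio in each genotype (cyclic loess, the last of these and the list counts without the saline arrays were chosen after seeing the data). Same-numbered arrays did not deviate together (correlations of deviations from -0.0978 to 0.0731), so the numbers were not treated as pairs.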

Additional observations from a re-analysis of the deposited data

How the results depend on the processing

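Across 168 member differences, 14 of them called, no called difference reversed under any alternative run. Quantile normalization lost 7 calls and gained 2, median centring lost 3 and gained 8, cyclic loess lost 8 and gained 1, and dropping the filter or the intensity trend lost 6 each. Adding 1 lost 2 and adding 64 lost 0. The cause of these changes was not tested. The replicate number as a block lost 0 calls and gained 2. It left other counts of called members within 1.5 times but gave 2 in place of 1 between saline and 4 weeks in the labelled knockout. In that comparison median centring gave 6 called members, the 60th percentile filter 2, cyclic loess 0 and the fit without the 4-week arrays of highest Gapdh ratio 2. For the genotypes at 4 weeks (2 called), quantile normalization, median centring, no filter, no trend and the fit without the high-ratio arrays gave 1 each, the fit without the saline arrays 0, and leaving out single arrays 0 to 3. Between saline and 4 weeks in wild type (5 called), quantile normalization and no filter gave 2 each, no trend, cyclic loess and the fit without the high-ratio arrays 1 each, and single arrays left out 1 to 4. Between DEN and saline in wild type (1 called), quantile normalization, median centring, no filter, no trend and cyclic loess gave 0 each, and single arrays left out 0 to 3. Between DEN and 4 weeks in wild type (0 called) median centring gave 1. For the change of the genotype difference between DEN and 4 weeks (0 called), the 60th percentile filter and the fit without the high-ratio arrays gave 1 each, and single arrays left out 0 to 1. Between DEN and 4 weeks in the labelled knockout every such fit without 1 array gave 2. Signals were low for Axin2 and for the dimmest tested probe sets of Slc1a2 and Tbx3. The SE of their genotype differences at 4 weeks was 0.19, 0.33 and 0.39, beside 0.16 for Lgr5 and 0.12 for the brightest Glul probe set. The part of low signal in this spread was not tested.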
